A study of Homo sapiens with 6 samples.

Results

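The Fanconi anemia and homologous recombination genes are 39 genes, chosen by name for their roles in these repair pathways. All 39 were found among the 20461 genes of a table of expression in PANC1, an established human pancreatic carcinoma cell line. For 48 h the cells had received either the vehicle, 0.1% DMSO, or gemcitabine at 50 nM, an anticancer drug that resembles a nucleoside and stops DNA replication. RNA-seq was done on 2 libraries per treatment, which the study's methods call biological replicates. DNaseI-seq, which maps open chromatin by its sensitivity to a nuclease, was done on 1 library per treatment. The question asked of these genes was whether their RNA levels, and the open chromatin at their start sites, differed between treated and vehicle cells.

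The Fanconi anemia pathway removes covalent links between the strands of DNA and helps to protect stalled replication forks. A core complex of FANC proteins, with the E3 ligase FANCL and the E2 enzyme UBE2T, attaches ubiquitin to the clamp of FANCI and FANCD2, and nucleases such as those held by SLX4 then cut the DNA. Homologous recombination repairs the resulting breaks: MRE11, RAD50 and NBN start the trimming of the ends, BRCA1, PALB2 and BRCA2 prepare the trimmed ends for strand exchange, a family of paralogs that includes XRCC2 and XRCC3 and the motor proteins RAD54L and RAD54B assist the exchange, and BLM with TOP3A, or MUS81 with EME1, separate the joined molecules. POLQ serves a different route, which joins ends through short matching sequences.

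The 4 RNA-seq libraries held 13194533 to 15766237 assigned fragments, at which a count of 3 stands for 0.190 to 0.227 CPM, a count relative to library size, which for the genes that follow was also scaled by TMM. The 2 gemcitabine libraries differed from each other more than the 2 vehicle libraries did (chi-square per gene of 5.16 against 2.17, where counting noise alone gives a value near 1). The cytokeratins KRT7, KRT8 and KRT18 and the filament protein VIM, which mark carcinoma lines of this kind, had means of 398 to 1549 FPKM, a level that divides fragments by transcript length and by sequencing depth, whereas KRT19, EPCAM and CDH1 were low, at 0.387 to 4.75 FPKM. Of 11 markers of other cell types, 5 were listed at 0 in all 4 libraries and 9 had means under 1 FPKM, and the exceptions were the matrix genes COL1A1 (955 FPKM) and DCN (4.39 FPKM). A measurement on bulk RNA cannot tell fewer cells of a kind, such as cells in S phase, from less RNA per cell.

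All of the 39 genes were expressed in PANC1 cells. Their levels per transcript length spanned from 1.38 FPKM for SLX4, a scaffold for nucleases, to 178 FPKM for FANCI, as means of the 4 libraries. SLX4 still stood above 43.1% of all genes in the table. In 30 of the 39 the mean lay between 4 and 40 FPKM, 6 genes were above 50 FPKM, and 1 was under 2 FPKM. The 6 above 50 FPKM were FANCI, UBE2T, FANCG, MUS81, EXO1 and RAD51C. The median gene of the group was at 15.8 FPKM in vehicle and 16.8 FPKM in gemcitabine cells. No gene was near the detection limit, since the fewest fragments assigned to any of them in a library were 67, for EME1, and the most were 3946, for FANCI.

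**Figure D1:**
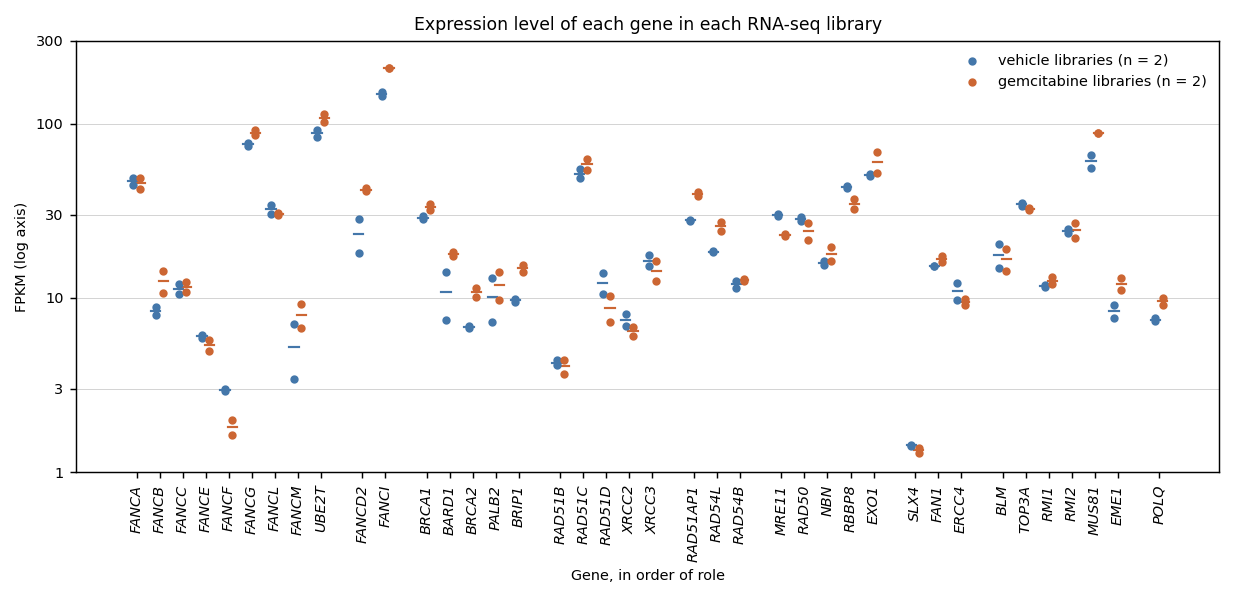
Level of each of the 39 genes in FPKM (log axis) in the 2 vehicle and 2 gemcitabine libraries, in order of role; points are libraries and short lines their means. The genes range from SLX4 at 1.38 FPKM to FANCI at 178 FPKM.

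Gemcitabine left the genes of this group moving in both directions. By edgeR's quasi-likelihood test on the assigned fragments, with Benjamini-Hochberg adjustment over the 14854 genes tested and a threshold of 0.05, 6 of the 39 rose and 8 fell, and 25 did not pass. The background was 18.5% of all tested genes higher and 20.0% lower, and the shares of the 39 were close to these. FANCD2, BRIP1, FANCI, RAD51AP1, POLQ and UBE2T rose. FANCF, RAD50, MRE11, XRCC2, TOP3A, XRCC3, FANCC and FANCL fell. Over the 39 the log2 fold change had a median of -0.04, against 0.0069 over all genes tested. In 13 genes both gemcitabine libraries lay above both vehicle libraries and in 16 both lay below, while 35.0% and 34.7% of all tested genes did so. The counts moved with the library set: 2 rose and 5 fell without vehicle replicate 1, 3 rose and 3 fell without vehicle replicate 2, and 8 rose and 12 fell without gemcitabine replicate 2. The calls over all tested genes moved too, to 8.85% higher and 10.0% lower without vehicle replicate 1, 8.42% and 9.52% without vehicle replicate 2, and 21.7% and 24.2% without gemcitabine replicate 2.

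The changes were small. The study's own criteria for differential expression add a fold change over 1.5 and a difference of at least 1 FPKM to the adjusted p of Cuffdiff. Here they were applied to the adjusted p and fold change of edgeR, so a gene that met them need not be among the study's own calls. They were met by 1 gene that rose, FANCD2, and 1 that fell, FANCF, beside 5.69% higher and 4.42% lower among all tested genes. FANCD2 no longer met them without vehicle replicate 1 or without gemcitabine replicate 1, where its log2 fold change was 0.52 and 0.50. FANCF no longer met them without gemcitabine replicate 1, where it still passed the test with a log2 fold change of -0.68 (adjusted p = 0.00158) but its levels of 2.95 and 1.98 FPKM differed by less than 1 FPKM. With 2 libraries against 2, an exact permutation test on 1 gene cannot give a p below 0.333, so the adjusted p-values rest on the spread that edgeR shares across genes. When libraries were scaled by their totals in place of TMM, the median over all genes moved to a log2 fold change of 0.12, and 11 of the 39 then rose and 4 fell, beside 27.4% higher and 13.3% lower among all tested genes. The genes lower under that scaling were FANCF, RAD50, MRE11 and TOP3A.

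**Figure D2:**
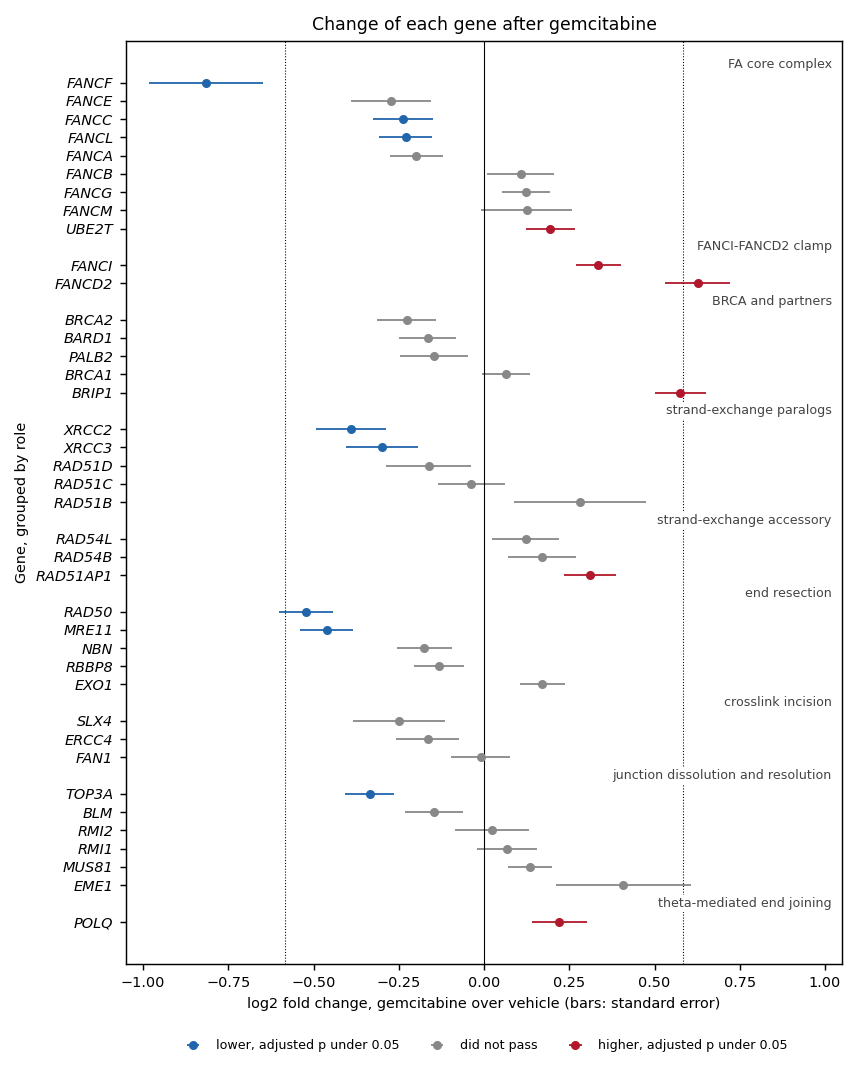
log2 fold change of each gene, gemcitabine over vehicle, with its standard error (edgeR, 2 libraries per treatment), grouped by role; colors mark the 6 genes that rose, the 8 that fell and the 25 that did not pass, and dotted lines mark a fold change of 1.5. FANCF at -0.81 and FANCD2 at 0.63 lie beyond the dotted lines, and every role with more than 3 genes has genes on both sides of 0.

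For the genes whose change was clearest in these libraries, the 300 bases around the RefSeq start (250 before and 50 after, GRCh38.p14) are shown, since DNaseI peaks were read around the annotated starts of the same genes, which were taken from a different annotation. They are the 5 genes that passed in every fit with 1 library left out (FANCD2, BRIP1, FANCF, RAD50 and MRE11) and RAD51AP1, a gene that rose and had a peak under both treatments. Each sequence had exactly 1 match in GRCh37, the build of the peaks, and is given 5′ to 3′ on the strand of the gene with its GRCh37 position. Capitals mark matches, on either strand, to 3 motifs of cell cycle promoters: E2F (TTTCCCGC, TTTCGCGC, TTTGCCGC or TTTGGCGC), CHR (TTTGAA or TTCGAA) and the CCAAT box (CCAAT).
FANCD2, chr3:10067871-10068170, plus strand: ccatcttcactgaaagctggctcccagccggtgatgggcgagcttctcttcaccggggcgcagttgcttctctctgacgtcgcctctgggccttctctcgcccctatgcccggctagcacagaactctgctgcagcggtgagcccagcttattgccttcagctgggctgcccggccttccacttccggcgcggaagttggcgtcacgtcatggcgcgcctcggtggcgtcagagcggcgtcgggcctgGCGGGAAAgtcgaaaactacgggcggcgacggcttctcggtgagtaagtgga
BRIP1, chr17:59940840-59941139, minus strand: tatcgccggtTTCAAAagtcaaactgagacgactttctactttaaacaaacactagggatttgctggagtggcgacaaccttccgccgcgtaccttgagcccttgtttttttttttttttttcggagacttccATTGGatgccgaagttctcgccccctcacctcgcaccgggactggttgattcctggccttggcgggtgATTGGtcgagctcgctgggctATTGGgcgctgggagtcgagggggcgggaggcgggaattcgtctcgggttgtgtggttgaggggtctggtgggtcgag
RAD51AP1, chr12:4647806-4648105, plus strand: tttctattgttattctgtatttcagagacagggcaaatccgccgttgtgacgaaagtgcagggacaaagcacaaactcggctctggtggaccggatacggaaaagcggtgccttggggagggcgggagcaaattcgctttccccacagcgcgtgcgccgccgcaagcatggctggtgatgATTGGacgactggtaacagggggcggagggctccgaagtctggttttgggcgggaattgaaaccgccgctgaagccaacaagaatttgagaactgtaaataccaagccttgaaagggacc
FANCF, chr11:22647320-22647619, minus strand: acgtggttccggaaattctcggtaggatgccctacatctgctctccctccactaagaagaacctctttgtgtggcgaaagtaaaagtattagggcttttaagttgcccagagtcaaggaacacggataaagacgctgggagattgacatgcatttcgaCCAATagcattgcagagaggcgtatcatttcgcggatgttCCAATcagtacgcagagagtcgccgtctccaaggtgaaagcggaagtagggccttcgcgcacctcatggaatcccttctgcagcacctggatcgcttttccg
RAD50, chr5:131892419-131892718, plus strand: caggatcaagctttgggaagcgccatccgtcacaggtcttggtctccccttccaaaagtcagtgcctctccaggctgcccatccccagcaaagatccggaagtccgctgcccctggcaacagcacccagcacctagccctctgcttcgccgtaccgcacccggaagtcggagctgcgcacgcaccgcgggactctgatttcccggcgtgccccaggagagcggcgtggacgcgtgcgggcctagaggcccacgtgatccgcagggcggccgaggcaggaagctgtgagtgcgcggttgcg
MRE11, chr11:94226961-94227260, minus strand: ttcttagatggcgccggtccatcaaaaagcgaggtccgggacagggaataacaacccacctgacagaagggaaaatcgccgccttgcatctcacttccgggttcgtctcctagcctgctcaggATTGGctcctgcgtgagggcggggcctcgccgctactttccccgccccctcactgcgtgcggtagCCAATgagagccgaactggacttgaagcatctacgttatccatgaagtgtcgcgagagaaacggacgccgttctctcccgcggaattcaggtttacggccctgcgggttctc

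The E2F match of FANCD2 spans its start, from base -2 to base 6. BRIP1 holds a CHR match at -240 to -235 and 3 CCAAT boxes, RAD51AP1 holds 1 CCAAT box, FANCF and MRE11 hold 2 each, and RAD50 holds no match to these motifs. Promoters were at hand for 35 of the 39 genes. Only 1 start was searched per gene, although many have more, such as BRCA1 with 22 annotated starts, so motifs at other starts were not read. E2F matches were found in 5 of them (14.3%): FANCA, FANCC, FANCD2, XRCC2 and EXO1, compared with 5.07% of the 11460 promoters of tested genes and 3.32% of all 35116 promoters. CHR matches were found in 4 (11.4%): UBE2T, BRIP1, POLQ and FANCC, compared with 11.7% of the promoters of tested genes and 16.4% of all. A CCAAT box was found in 13 (37.1%), compared with 36.4% and 34.6%. The NRF1 word CGCATGCG was found in SLX4 alone (2.86%), compared with 3.63% and 2.02%. Matches to E2F fell on genes that rose (FANCD2), fell (FANCC and XRCC2) or did not pass (FANCA and EXO1), and matches to CHR on genes that rose (UBE2T, BRIP1 and POLQ) or fell (FANCC). The matches within a promoter did not overlap each other.

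Among the 9 genes of the core complex, which attaches ubiquitin to the clamp, 1 rose, 3 fell and 5 did not pass. For this role and those below, the background was 18.5% of all tested genes higher and 20.0% lower. Each role has few genes, and none was tested against these shares. FANCF, an adaptor that holds parts of the complex together, had the largest decrease of the 39. Its normalised counts were 10.2 and 10.3 CPM in vehicle replicates 1 and 2, and 5.26 and 6.39 CPM in gemcitabine replicates 1 and 2. Both treated libraries lay well below both vehicle libraries. The log2 fold change of FANCF was -0.81 ± 0.17 (SE, n = 2 per treatment; adjusted p = 0.00141), and it was among the least expressed genes of the group, at 2.38 FPKM.

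FANCC, a partner of FANCF within the complex, measured 34.3 and 36.6 CPM in vehicle and 29.8 and 30.3 CPM in gemcitabine libraries. FANCL, the ubiquitin ligase, measured 63.7 and 70.3 CPM in vehicle and 56.1 and 58.2 CPM in gemcitabine libraries. The treated libraries lay below the vehicle libraries in both genes, by small margins. FANCC fell by 0.24 on the log2 scale (SE 0.088, adjusted p = 0.0440) and FANCL by 0.23 (SE 0.077, adjusted p = 0.0281). With 1 library left out, FANCC was past the threshold only without gemcitabine replicate 2, with adjusted p of 0.135, 0.314 and 0.0660 without vehicle replicate 1, vehicle replicate 2 and gemcitabine replicate 1. FANCL was not past it without vehicle replicate 1 or 2 (adjusted p = 0.0762 and 0.328). For FANCC the log2 ratio of mean FPKM pointed the other way, at 0.04.

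UBE2T, the E2 enzyme that works with FANCL, was the most highly expressed gene of this role, at 97.9 FPKM. It measured 71.9 and 69.9 CPM in vehicle and 84.4 and 77.9 CPM in gemcitabine libraries, without overlap. It rose by a log2 fold change of 0.19 ± 0.072 (adjusted p = 0.0445), the smallest change among the genes that passed, and was not past the threshold without vehicle replicate 1, vehicle replicate 2 or gemcitabine replicate 1 (adjusted p = 0.176, 0.255 and 0.138). Of the core genes that did not pass, FANCE and FANCA had log2 fold changes of -0.27 and -0.20 (adjusted p = 0.0816 and 0.0538). The remaining 3, FANCB, FANCG and the DNA translocase FANCM, lay between 0.11 and 0.12.

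Both genes of the clamp rose. FANCD2 measured 48.9 and 58.0 CPM in vehicle and 89.7 and 75.5 CPM in gemcitabine libraries. The treated libraries lay well above the vehicle libraries, although replicates within each treatment differed visibly. The change of 0.63 ± 0.096 on the log2 scale (adjusted p = 0.000139) was the largest increase of the 39. By limma on log2(FPKM + 1), FANCD2 had a log2 difference of 0.85 and did not pass (adjusted p = 0.0536).

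FANCI, its partner, measured 221 and 234 CPM in vehicle and 283 and 290 CPM in gemcitabine libraries. The replicates of FANCI lay close together and the treatments did not overlap. The log2 fold change was 0.33 ± 0.066 (adjusted p = 0.00109), and without vehicle replicate 1 it was 0.30 with an adjusted p of 0.0662. In FPKM, FANCD2 went from a mean of 23.3 to 41.9 and FANCI from 148 to 209. The vehicle libraries of FANCD2 lay apart, at 18.2 and 28.5 FPKM.

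In the group of BRCA1, BRCA2 and their partners, 1 of 5 genes rose, beside 18.5% of all tested genes, and 4 did not pass. BRIP1, a helicase that binds BRCA1, measured 56.1 and 61.5 CPM in vehicle and 84.9 and 90.5 CPM in gemcitabine libraries. The treated libraries were far above the vehicle libraries relative to the gap between replicates. For BRIP1 the log2 fold change was 0.58 ± 0.075, with the smallest adjusted p of the 39 (3.54e-05), and at a fold change of 1.49 it stayed just under the limit of 1.5.

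BRCA1, the most highly expressed gene of this role at 31.1 FPKM, measured 132 and 137 CPM in vehicle and 134 and 148 CPM in gemcitabine libraries. The treatments overlapped. The log2 fold change was 0.07 ± 0.070 (adjusted p = 0.498), with a 95% interval of -0.09 to 0.22. BARD1, the partner of BRCA1 in a ubiquitin ligase, PALB2, which bridges BRCA1 and BRCA2, and BRCA2, which acts on the trimmed ends, had log2 fold changes of -0.17, -0.15 and -0.23, and BRCA2 came closest to the threshold (adjusted p = 0.0512).

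Of the 5 strand-exchange paralogs (RAD51B, RAD51C, RAD51D, XRCC2 and XRCC3), which act early in recombination, 2 fell and none rose by edgeR. Among all tested genes 20.0% fell and 18.5% rose, and 5 genes are too few to be set apart from these shares. None of the paralogs rose at an unadjusted p under 0.05 by edgeR, and none was called higher by DESeq2 or limma. XRCC2 measured 34.1 and 39 CPM in vehicle and 30.2 and 25.6 CPM in gemcitabine libraries. XRCC3 measured 30.2 and 29.3 CPM in vehicle and 26.5 and 21.8 CPM in gemcitabine libraries. Both gemcitabine libraries lay below the vehicle libraries in each gene, with gemcitabine replicate 2 the lower.

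XRCC2 fell by 0.39 on the log2 scale (SE 0.10, adjusted p = 0.00811), and without vehicle replicate 2 by 0.28 (adjusted p = 0.206). XRCC3 fell by 0.30 (SE 0.10, adjusted p = 0.0354), and with 1 library left out was past the threshold only without gemcitabine replicate 1. Its log2 fold change was -0.27, -0.31 and -0.16 without vehicle replicate 1, vehicle replicate 2 and gemcitabine replicate 2 (adjusted p = 0.254, 0.193 and 0.219). RAD51C, the most highly expressed paralog at 55.3 FPKM, measured 31.4 and 32.3 CPM in vehicle and 33.8 and 28.3 CPM in gemcitabine libraries, which overlapped. Its log2 fold change was -0.04 ± 0.099, with a 95% interval of -0.25 to 0.18. RAD51B and RAD51D had log2 fold changes of 0.28 and -0.16 and did not pass.

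Among the 3 accessory factors of strand exchange, RAD51AP1, which stimulates the pairing of strands, rose. It measured 41.3 and 43.5 CPM in vehicle and 52.5 and 52.8 CPM in gemcitabine libraries. The replicates lay within a few CPM of each other and the treatments did not overlap. The log2 fold change was 0.31 ± 0.077 (adjusted p = 0.00554), and it was no longer past the threshold without vehicle replicate 1 (0.28, adjusted p = 0.101) or vehicle replicate 2 (0.36, adjusted p = 0.0546). The motor proteins RAD54L and RAD54B had log2 fold changes of 0.12 and 0.17 and did not pass.

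Of the 5 end resection genes, 2 fell, beside 20.0% of all tested genes, and 3 did not pass. RAD50 measured 82.1 and 81.2 CPM in vehicle and 52.9 and 60.8 CPM in gemcitabine libraries. MRE11, the nuclease of the same complex, measured 67.8 and 67.5 CPM in vehicle and 46.3 and 51.9 CPM in gemcitabine libraries. In both genes the vehicle replicates were nearly identical, and the treated libraries lay far below them. RAD50 fell by 0.52 on the log2 scale (SE 0.079, adjusted p = 0.000124) and MRE11 by 0.46 (SE 0.078, adjusted p = 0.000337). By limma on log2(FPKM + 1), the log2 differences of RAD50 and MRE11 were -0.23 and -0.37 and did not pass (adjusted p = 0.294 and 0.0636).

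NBN, the remaining subunit, had a log2 fold change of -0.17 with non-overlapping treatments but did not pass (adjusted p = 0.107), and neither did RBBP8, the cofactor of MRE11, at -0.13 (adjusted p = 0.169). EXO1, an exonuclease that extends the trimming and the most highly expressed gene of this role at 55.8 FPKM, measured 90.4 and 87.6 CPM in vehicle and 99.8 and 101 CPM in gemcitabine libraries. The treated libraries lay above the vehicle libraries. Its log2 fold change of 0.17 ± 0.066 narrowly missed the threshold (adjusted p = 0.0540), and it passed with libraries scaled by their totals (0.28, adjusted p = 0.00353) and without gemcitabine replicate 1 or 2 (adjusted p = 0.0315 and 0.0398).

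Of the 3 genes for cutting at crosslinks, none passed by edgeR, DESeq2 or limma, and by edgeR none did at an unadjusted p under 0.05. Among all 14854 genes tested, 9128 did not pass by edgeR. FAN1, a nuclease recruited by the modified clamp and the most highly expressed of them at 16 FPKM, measured 35.5 and 37.8 CPM in vehicle and 37.5 and 35.3 CPM in gemcitabine libraries. These values overlapped almost fully. The 95% interval of its log2 fold change was -0.19 to 0.17. SLX4 and ERCC4, the catalytic subunit of the XPF nuclease, had log2 fold changes of -0.25 and -0.17.

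Among the 6 genes that separate joined DNA molecules, TOP3A, the topoisomerase that works with the BLM helicase, fell. It measured 74.1 and 78.9 CPM in vehicle and 61.5 and 59.8 CPM in gemcitabine libraries. The treatments were well apart compared with the gap between replicates. The log2 fold change was -0.34 ± 0.072 (adjusted p = 0.00205), and without vehicle replicate 2 it was -0.28 (adjusted p = 0.0862). By limma on log2(FPKM + 1), TOP3A had a log2 difference of -0.08 (adjusted p = 0.564).

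MUS81, a nuclease for joined molecules and the most highly expressed gene of this role at 74.6 FPKM, measured 117 and 117 CPM in vehicle and 130 and 126 CPM in gemcitabine libraries. The treated libraries lay slightly above the vehicle libraries. Its log2 fold change of 0.14 ± 0.065 did not pass (adjusted p = 0.117). MUS81 did pass with libraries scaled by their totals (0.25, adjusted p = 0.00786), without gemcitabine replicate 2 (0.16, adjusted p = 0.0312) and by limma on log2(FPKM + 1) (0.54, adjusted p = 0.0356). Its partner EME1 had the largest log2 fold change among the genes that did not pass, 0.41 ± 0.20 (adjusted p = 0.117), from 67 to 95 fragments per library. BLM and its cofactors RMI1 and RMI2 lay between -0.15 and 0.07.

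POLQ, the polymerase of theta-mediated end joining, measured 46.5 and 52.6 CPM in vehicle and 57.2 and 58.3 CPM in gemcitabine libraries. The treated libraries lay above the vehicle libraries, of which replicate 2 was the closer. Its log2 fold change was 0.22 ± 0.081 (adjusted p = 0.0434), and it was past the threshold in 2 of the 4 fits with 1 library left out. Without vehicle replicate 1 it was 0.14 (adjusted p = 0.359), and without vehicle replicate 2 it was 0.32 (adjusted p = 0.0696).

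**Figure D3:**
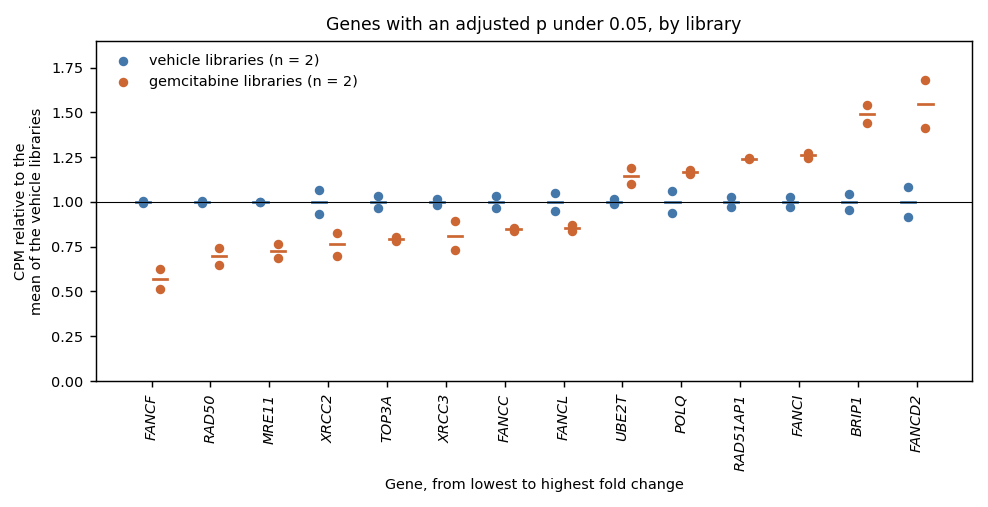
Normalised counts (CPM) of the 14 genes with an adjusted p under 0.05 in each library, divided by the mean of the 2 vehicle libraries of that gene; points are libraries and short lines the mean of each treatment. The 14 genes were picked by the test on these same libraries, and the treatments do not overlap in any of them. Of all tested genes, 35.0% did not overlap with gemcitabine higher and 34.7% with it lower. FANCF is the lowest and FANCD2 the highest.

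Of the 14 genes that passed, BRIP1, FANCD2, FANCF, MRE11 and RAD50 passed in all 4 fits with 1 library left out, FANCI, XRCC2 and TOP3A in 3, RAD51AP1, FANCL and POLQ in 2, and XRCC3, FANCC and UBE2T in 1. DESeq2 on the same fragments called 4 of the 39 higher (BRIP1, FANCD2, FANCI and RAD51AP1) and 5 lower (FANCF, MRE11, RAD50, TOP3A and XRCC2), where it called 11.6% of all tested genes higher and 14.6% lower.

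The library kit named in the study's methods does not mark strand, so fragments from overlapping genes on opposite strands cannot be told apart. In the annotation used here, 13 of the 39 genes, 6 of them among the 14 that passed, share exon sequence with a gene on the opposite strand: FANCD2 with FANCD2OS, FANCI with POLG, FANCC with AOPEP, FANCF with GAS2, FANCL with VRK2 and XRCC3 with KLC1. For FANCF the partner was assigned few fragments, as GAS2 was given 4 and 5 in vehicle and 7 and 3 in gemcitabine libraries, compared with 148 and 157 and then 73 and 87 for FANCF. Assigned counts do not show how many reads came from shared exons, and the fragments of the other partners were not compared. RAD51D and RAD54B share exons with a gene on the same strand, and neither passed.

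The level of a gene in FPKM can change differently from its fragments. Over the tested genes with an FPKM above 0 under both treatments, the log2 ratio of mean FPKM exceeded the log2 fold change of fragments by a median of 0.12, which is also the median over all genes with libraries scaled by their totals. In 4 of the 39 genes the gap differed from that median by more than 0.4 on the log2 scale, as it did in 5.78% of the 11752 tested genes with at least 1 FPKM in vehicle. They were BRCA2 and BARD1, whose FPKM were higher relative to their fragments, and RAD51B and RAD51D, whose FPKM were lower.

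BRCA2 had 507 and 556 fragments in vehicle and 418 and 421 in gemcitabine libraries, but 6.75 and 6.87 FPKM in vehicle and 11.5 and 10.1 FPKM in gemcitabine libraries. The 2 units therefore ordered the treatments in opposite ways, and neither unit had overlapping treatments. By limma on log2(FPKM + 1), BRCA2 rose, with a log2 difference of 0.59 and an adjusted p of 0.0478, but it did not pass when the filter on low values was left out. In the filtered fit BRCA2 met the study's criteria and FANCD2 did not. BARD1 had 14.0 and 7.51 FPKM in vehicle and 17.4 and 18.3 FPKM in gemcitabine libraries, while its normalised counts were 40.3 and 41.8 CPM in vehicle and 36.0 and 37.2 CPM in gemcitabine libraries. How fragments were divided among isoforms was not analysed here, so the direction of BRCA2 and BARD1 depends on the unit.

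**Figure D4:**
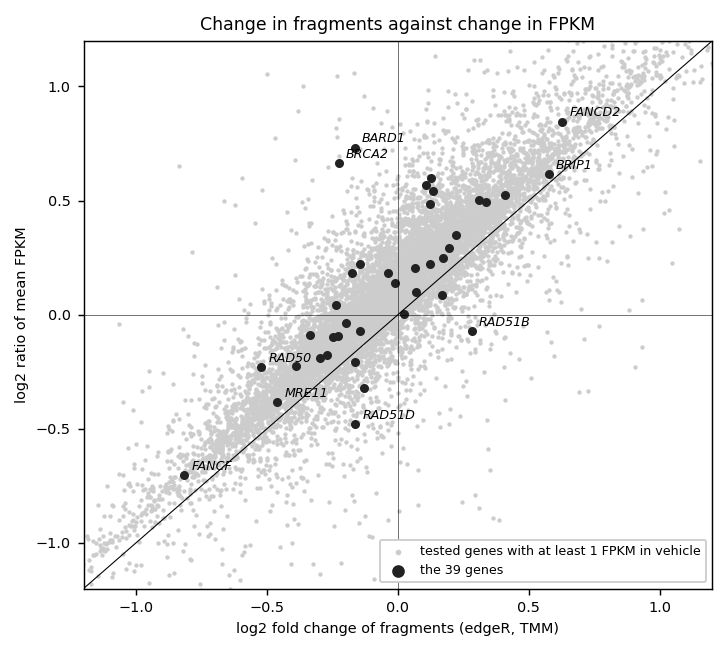
log2 fold change of fragments (edgeR, TMM) against the log2 ratio of mean FPKM, gemcitabine over vehicle; black points are the 39 genes, grey points the other tested genes with at least 1 FPKM in vehicle, and the line marks equal values (points beyond 1.2 are not drawn). BRCA2 and BARD1 lie above the cloud, in the area where fragments are lower and FPKM higher, and RAD51B and RAD51D lie below it.

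Other genes of the same pathways moved in both directions as well. Of 45 further Fanconi anemia and recombination genes, 43 were tested, 11 rose and 7 fell, and the median change was 0.0061 on the log2 scale. Among all tested genes 18.5% rose and 20.0% fell, and no list named here was tested against those shares. SWI5, a cofactor in strand exchange, rose by a log2 fold change of 0.74 and was the only one of them that met the study's criteria. WRN, a helicase, fell by 0.54 on the log2 scale, and GEN1, a nuclease for joined molecules, rose by 0.45. Of 18 genes of non-homologous end joining, the route that competes with recombination for broken ends, 1 rose and 6 fell. RIF1 and SHLD2, which hold back end resection, fell by 0.72 and 0.70 and met the criteria, and PRKDC, the kinase of this route, fell by 0.45.

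Genes of the cell cycle phases in which recombination is active also moved. Of 27 tested S phase genes, 3 rose and 17 fell, beside 18.5% and 20.0% of all tested genes, and the median change was -0.34 on the log2 scale. The strongest decreases by adjusted p were those of UNG, MCM5 and MCM6, at -1.55, -1.14 and -0.84. Of 22 genes of G2 and M phase, 3 rose and 8 fell, with a median of -0.09, and MKI67 fell by 0.72 while CDK1 rose by 0.67. The part of cell cycle phase in the changes of the 39 repair genes was not tested.

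DNaseI-seq gave 9605 peaks in vehicle and 10695 in gemcitabine cells outside the mitochondrial genome. A peak overlapping the 1000 bases either side of an annotated start was present at 21 of the 39 genes in vehicle and at 19 in gemcitabine cells, where 29.0% and 33.6% of all tested genes had one. Every annotated start of a gene was searched, from 1 for FANCF to 69 for FANCL. The shares over all tested genes were not matched for number of starts or for expression level. In 13 genes a peak was present under both treatments (22.1% of all tested genes), in 8 under vehicle only (6.97%), in 6 under gemcitabine only (11.5%) and in 12 under neither. Peaks counted under both treatments need not lie at the same start. Those of FANCC and MUS81 were nearest to different starts, and the gemcitabine peak of MUS81 covered no start. With 1 library per treatment, a peak found under 1 treatment has no replicate check.

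All of the 42 peaks at these starts were modest. Their scores, which are -10 times log10 of the peak caller's p, ran from 50.1 to 99.8, where the caller's minimum was 50. None of the 39 genes had a peak of at least 100 at a start, against 8.40% of all tested genes in vehicle and 10.4% in gemcitabine cells. The peaks were 325 to 2238 bases wide, and 39 of the 42 covered an annotated start. The strongest were those of ERCC4, with scores of 95.5 in vehicle and 99.8 in gemcitabine cells.

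The 8 genes with a peak under vehicle only were UBE2T, BARD1, BRIP1, MRE11, RAD50, TOP3A, RMI1 and RMI2, with scores of 50.1 to 78.6. The 6 with a peak under gemcitabine only were FANCA, FANCM, PALB2, RAD54L, RBBP8 and EXO1, with scores of 52.6 to 84.4. Each of these scores lay inside the range of the genes with peaks under both treatments (51.2 to 99.8) except that of BRIP1, the lowest of all.

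Genes that rose and genes that fell were both found with peaks under both treatments, under vehicle only and under neither. Of the 6 genes that rose, FANCI and RAD51AP1 had a peak under both treatments, BRIP1 and UBE2T under vehicle only, and FANCD2 and POLQ under neither. Of the 8 that fell, FANCC, XRCC2 and XRCC3 had peaks under both treatments, MRE11, RAD50 and TOP3A under vehicle only, and FANCF and FANCL under neither. All 6 genes with a peak under gemcitabine only were among the 25 that did not pass, as were 9128 of the 14854 genes tested. BRIP1, whose RNA rose, had its vehicle peak at chr17:59939890-59941397 (score 50.1), which covers the whole promoter shown above. RAD50, whose RNA fell, had its vehicle peak at chr5:131892279-131892933 (score 61.5), and MRE11 at chr11:94226438-94227553 (score 55.2), again over all 300 bases shown. RAD51AP1 had peaks at chr12:4647305-4648284 in vehicle (score 88.0) and chr12:4647266-4648324 in gemcitabine cells (score 76.9). The peaks of FANCC lay at different annotated starts, from base -783 to base 557 of a start in vehicle and from base -717 to base 77 of another in gemcitabine cells.

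**Figure D5:**
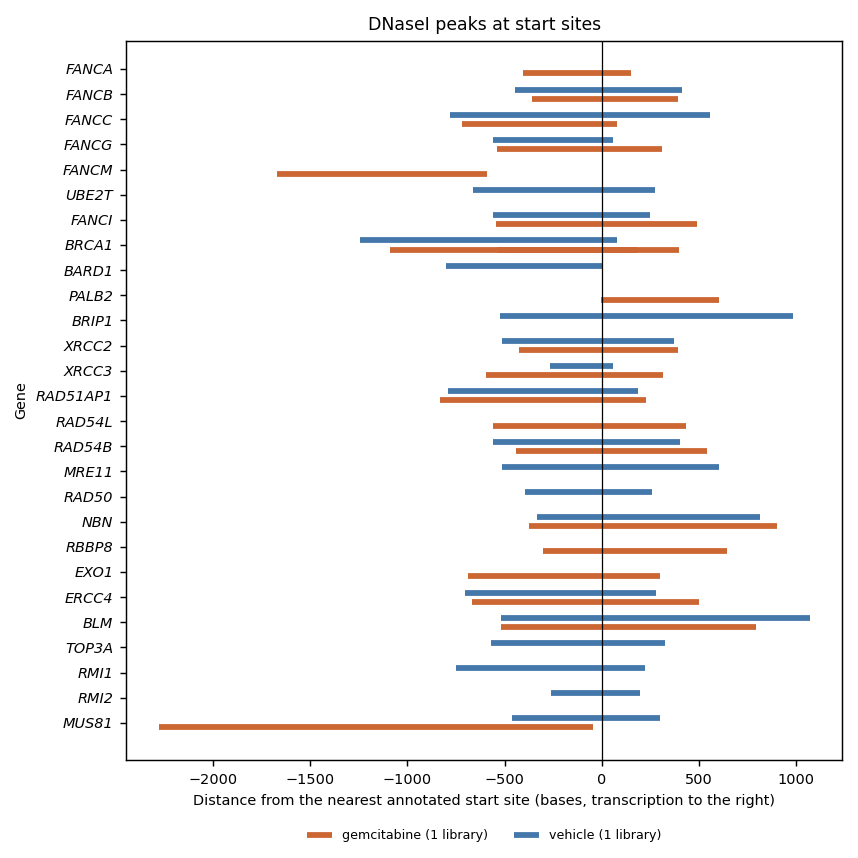
Position of DNaseI peaks relative to the nearest annotated start of each gene, in bases with transcription to the right; blue bars are vehicle and orange bars gemcitabine (1 library each), and the 12 genes with no peak are left out (BRCA1 has 2 peaks per treatment, each drawn from its own nearest start). Most peaks cover the start, 8 genes have a blue bar only and 6 an orange bar only.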

How the data were processed

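Per the study's methods and the submitters' processing notes, the authors aligned single-end RNA-seq reads of 2 vehicle and 2 gemcitabine libraries to hg19 with TopHat2 (version 2.0.8) and assigned them with Cuffdiff (version 2.0.2) to protein-coding Gencode genes, asking for at least 10 reads in a gene. Both units deposited by the authors, estimated counts (fragments assigned to each gene, 86.8% of them whole numbers) and FPKM, are Cuffdiff output. The authors called DNaseI peaks with MACS in 1 library per condition at a p-value of 1e-05. The deposited score of a peak is -10 times log10 of that p, and was used only to describe and filter peaks. Treatment time and DMSO concentration come from the methods, and the time of DNaseI-seq was taken as that of RNA-seq. Nothing ties the library index of the table to the labels, so replicate numbers are names only. The 2 columns scaled by Cuffdiff were not used, and 275 genes marked as failed in at least 1 library, none of the 39 among them, were kept.

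Counts were rounded, and the 14854 genes reaching 10 fragments in the sum of the 4 libraries were fitted without covariates by edgeR 4.0.16 (quasi-likelihood, TMM) in R 4.3.3. All p-values were adjusted over all genes tested by Benjamini-Hochberg. Each standard error was obtained from the estimate and its F value, and each 95% interval from the t distribution with the test's residual and prior degrees of freedom. Ensembl IDs gave a current name to 19189 of the 20461 genes. The fit was tested on simulated data in which all genes and both treatments had the same spread. That test does not cover the greater spread seen between the gemcitabine libraries. The 39 genes, their roles and the other gene lists were chosen with earlier results of these data known. Genes described with every library are those that passed and the most highly expressed gene of each role. Starts came from Gencode v44 carried over to GRCh37, and a peak counted with at least 1 base of overlap. Promoter sequences came from RefSeq (GRCh38.p14), were looked up by symbol, and were searched on both strands. Alternatives were DESeq2 1.42.0, other scalings and filters, limma 3.58.1 on log2(FPKM + 1) or log2(FPKM + 0.1), an adjusted p under 0.01, a replicate block, each library left out, and other windows, scores and overlaps for peaks.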

Additional observations from a re-analysis of the deposited data

How the results depend on the processing

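Each gene had at least 67 fragments per library. Standard errors ran higher in EME1, RAD51B and FANCF (0.20, 0.19 and 0.17), which had few fragments, than in MUS81 and FANCI (0.065 and 0.066), and the limits set by depth and by 2 libraries per treatment were not compared. Of the 10 alternatives that kept all libraries, BRIP1, FANCI and RAD51AP1 passed under 9, FANCD2, FANCF, MRE11, RAD50 and TOP3A under 7, XRCC2 under 6, POLQ and UBE2T under 4, and FANCC, FANCL and XRCC3 under 3. The count of genes that fell (8) was 5 with DESeq2, with no filter on low counts and at an adjusted p under 0.01, 4 with library totals, and 0 with limma on log2(FPKM + 1), on log2(FPKM + 0.1) and without a filter. In the same order, these settings called 14.6%, 14.2%, 14.0%, 13.3%, 3.96%, 4.06% and 0.00% of all genes lower, against 20.0% in the main fit. At an unadjusted p under 0.05 these limma fits gave 3 lower and 12 higher, and without a filter 3 lower and 10 higher. Over all genes the 2 filtered fits were also shifted upward, with median log2 differences of 0.105 and 0.128. Each called 9.28% of all genes higher at the adjusted threshold. The unadjusted calls over all genes were not divided by direction. The count of genes that rose (6) was 11 with library totals, where 27.4% of all genes were higher, and 0 with limma without a filter, which called 0 of all 17783 genes (4689 at an unadjusted p under 0.05). With 1 library left out, the counts ranged from 3 to 12 for genes that fell and from 2 to 8 for genes that rose. By the study's criteria, the count that fell (1) was 0 in all 3 limma fits and the count that rose (1) was 2 with library totals, with edgeR's filterByExpr and with limma on log2(FPKM + 0.1), and 0 with limma without a filter; with 1 library left out both ranged from 0 to 2. The median log2 fold change of the 39 genes was 0.074 with library totals and -0.12 to -0.039 with 1 library left out. In the fits with vehicle or gemcitabine reduced to 1 library, that library is assumed to vary like those of the other treatment.

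The log2 fold change of FAN1 (-0.0095) became 0.10 with library totals, 0.00054 with filterByExpr, 0.13, 0.14 and 0.13 with limma, and ranged from -0.053 to 0.045 with 1 library left out. FANCC (-0.24) became 0.04 in each limma fit (0.038, 0.041 and 0.038). RAD51C (-0.04) became 0.074 with library totals, 0.18 with limma in each version, and ranged from -0.17 to 0.088 with 1 library left out. BRCA1 (0.07) became 0.17 with library totals, where it passed (adjusted p = 0.0469), 0.20 with limma in each version, and ranged from -0.0042 to 0.13 with 1 library left out. The cause of these changes was not tested. The replicate block on the library index of the table gave 6 higher and 9 lower, with FANCA added. The index cannot be tied to the labels. The deviations of libraries with the same index had a correlation of -0.017, a single value that cannot show whether libraries were prepared in pairs. With peaks of a score of at least 100, 0 genes had a peak at a start in vehicle, gemcitabine or both, and 0 remained of the 21, 19 and 13. The wider window and the midpoint rule changed these counts by at most 2.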

Other observations

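Some of the 39 genes share a start region with a gene on the opposite strand, within 1000 bases head to head. C12orf4, the neighbor of RAD51AP1, had 302 and 350 fragments in vehicle and 421 and 350 in gemcitabine libraries, and rose by a log2 fold change of 0.36 ± 0.11 (edgeR, adjusted p = 0.0168), while RAD51AP1 rose by 0.31. The other neighbors of genes that passed did not pass: ANKRD49 (beside MRE11) had a log2 fold change of -0.13 ± 0.11, SMCR8 (beside TOP3A) 0.09 ± 0.099 and ZFYVE21 (beside XRCC3) 0.20 ± 0.11. GAS2, the neighbor of FANCF, had 3 to 7 fragments per library.

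The 35 promoters at hand had a median GC content of 64.3%, and the 11460 promoters of tested genes had one of 65.0%.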
